A study of Mus musculus with 30 samples.

Results

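The 10 genes described here encode the transcription factors that set up and maintain cardiac muscle: Gata4 and Gata6, Nkx2-5, Tbx5 and Tbx20, Hand2, the 3 myocyte enhancer factors Mef2a, Mef2c and Mef2d, and Srf. They were chosen by symbol, each matched to its Ensembl identifier, and not by a cutoff on measured values, although earlier results of these data were known. All 10 had 1 entry in the count table of the postpartum study, among 78258 genes, and 1 entry in the separate table of the diet study, among 56691 genes. Their identifiers were ENSMUSG00000021944 for Gata4, ENSMUSG00000005836 for Gata6, ENSMUSG00000015579 for Nkx2-5, ENSMUSG00000018263 for Tbx5 and ENSMUSG00000031965 for Tbx20. Those of the others were ENSMUSG00000038193 for Hand2, ENSMUSG00000030557 for Mef2a, ENSMUSG00000005583 for Mef2c, ENSMUSG00000001419 for Mef2d and ENSMUSG00000015605 for Srf.

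These factors bind DNA in different ways and act together on shared enhancers. GATA factors are zinc finger proteins that bind GATA sequences, NKX2-5 is a homeodomain protein, TBX5 and TBX20 are T-box proteins, and HAND2 is a basic helix-loop-helix protein. The MEF2 proteins and SRF share the MADS box, a DNA-binding domain; MEF2 binds an A- and T-rich motif and SRF the CArG box. GATA4, NKX2-5 and TBX5 bind one another and jointly activate genes of contraction and conduction, while SRF, with cofactors such as myocardin, activates cytoskeletal and immediate early genes.

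Hearts of wild-type (WT) mice and of S55L mice, which carry the p.S55L change in CHCHD10, a protein of the mitochondrial intermembrane space, were profiled by sequencing of mRNA 3' ends. In the postpartum study, naive animals were aged to 100 days and postpartum (PP) animals were bred at 65 days and killed 0 days after giving birth, which gave the groups WT naive, WT PP, S55L naive and S55L PP. In the diet study every animal was S55L and postpartum, and had been fed during breeding either a control diet or one containing EH301, a combination of nicotinamide riboside and pterostilbene. The labels name heart as the tissue and do not give the zygosity of the mutation or the sex of the naive mice. Nor do they say that libraries came from different mice. The p-values therefore set group differences against the spread between libraries, which may not be that between mice.

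Each group was deposited as 5 columns. WT PP 1 and 2 held identical counts, as did S55L PP 1 and 2, and each such pair was used once, which left 4 libraries in both PP groups and 5 in both naive groups. Control diet 5 was identical to EH301 diet 6 and neither was used (n = 4 per diet). In the postpartum study, WT libraries held 1418715 to 2949993 reads on genes and S55L libraries 2755500 to 5131316; libraries of the diet study held 466651 to 3048461. Genotype nearly coincided with the position on the library plate, read from well codes in the column names: column 1 held WT alone, column 2 held WT PP 1 beside 6 S55L libraries, and column 3 held S55L alone. The transcript of Chchd10 itself had a mean level of 2719 ± 227 CPM (gene counts scaled to library size) in WT naive and 4501 ± 715 in S55L naive (SD, n = 5 each). In postpartum hearts it was 3410 ± 1266 CPM in WT and 4170 ± 1298 in S55L (n = 4 each), with overlap, and 3' counts do not read the mutated codon.

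In the postpartum study all 12 cardiomyocyte markers were detected in every library, which matches the labelled tissue. The summed level of these markers ranged from 81968 to 103080 CPM in WT and from 37784 to 60740 CPM in S55L libraries, and 10 of 12 were lower in the naive and 9 of 12 in the postpartum comparison of genotypes. Macrophage markers summed to 298 to 537 CPM in WT and 1442 to 2525 CPM in S55L libraries, with 10 and 9 of 10 higher. Fibroblast markers summed to 2089 to 2898 CPM in WT and 3437 to 4558 CPM in S55L, and endothelial markers to 741 to 847 and 488 to 717 CPM. Smooth muscle and pericyte markers summed to 793 to 1125 CPM in WT and 1636 to 3718 CPM in S55L, although 8 and 5 of their 10 genes were called lower and only Acta2 higher. Atrial markers summed to 207 to 865 CPM in WT and 791 to 5082 CPM in S55L, a sum that also holds Nppa. Of 5 tested atrial markers, 4 were called higher and 1 lower in naive hearts, and 3 higher and 1 lower in postpartum hearts. The atrial genes Sln and Myl7 had reads in 1 and 5 of 18 libraries. Lymphocyte markers stayed at or below 4.01 CPM, with Cd79a at 0 in every library, and epicardial markers at or below 6.52 CPM, in these 18 libraries. Libraries also split by genotype without overlap in 3 measures: mitochondrially encoded genes took 16.8% to 24.6% of reads on genes in WT and 9.52% to 15.5% in S55L, multiply aligned reads were 24.7% to 27.3% of a library in WT and 17.5% to 21.2% in S55L, and reads on genes were 58.3% to 61.6% and 66.3% to 69.2%. In bulk heart RNA, fewer cells of a type and less RNA per cell cannot be told apart, and the part of these shifts in the genotype results below was not tested.

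The upstream regions of 7 of the 10 genes, all but Gata4, Gata6 and Tbx5, were held in the RefSeq promoter table (build GRCm38.p6), with 9 entries in all because Mef2c has 3 start sites. They were searched on both strands, in the 250 bases before the start site, for the motifs that these factors bind: GATA preceded by A or T and followed by A or G for GATA factors, CTA and TAG with any 4 bases between them for MEF2, TNAAGTG for NKX2-5, AGGTGT for T-box factors, and the CArG box for SRF. Matches lay in 3 of the 9 entries, shown here because they pair 3 of the factors with motifs of others on the list or of their own. Capitals mark the matches, which in Hand2 lie at -215 and -172 from the start site (GATA), in Mef2c at -216 (T-box) and in Srf at -82 and -62 (CArG).
Hand2: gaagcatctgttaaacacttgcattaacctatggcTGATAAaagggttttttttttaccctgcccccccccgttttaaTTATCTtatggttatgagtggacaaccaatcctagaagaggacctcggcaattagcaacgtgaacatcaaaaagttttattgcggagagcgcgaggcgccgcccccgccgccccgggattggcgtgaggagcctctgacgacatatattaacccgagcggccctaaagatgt
Mef2c: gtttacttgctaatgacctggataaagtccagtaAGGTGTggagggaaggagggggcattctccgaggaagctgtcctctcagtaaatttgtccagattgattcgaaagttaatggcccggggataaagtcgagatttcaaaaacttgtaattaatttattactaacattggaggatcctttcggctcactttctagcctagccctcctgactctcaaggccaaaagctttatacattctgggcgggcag
Srf: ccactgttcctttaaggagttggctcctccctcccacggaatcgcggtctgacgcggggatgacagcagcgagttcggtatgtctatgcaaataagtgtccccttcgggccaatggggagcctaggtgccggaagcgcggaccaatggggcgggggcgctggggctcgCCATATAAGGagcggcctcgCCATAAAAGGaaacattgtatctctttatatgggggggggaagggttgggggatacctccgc
The Hand2 stretch is chr8:57320733-57320982 on the plus strand, the Mef2c stretch chr13:83523406-83523655 on the plus strand, at the second of its start sites, and the Srf stretch chr17:46556163-46556412 on the minus strand. Among 32851 promoters of the same length, 26.5% held a GATA match, 11.8% a T-box match, 10.1% an NKX2-5 match, 3.20% a MEF2 match and 1.47% a CArG box. A match is a description of the letters and not a measured site.

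Comparison of S55L naive with WT naive asks what differs between the genotypes without a pregnancy. Of the 10 factors, 4 fell in S55L hearts: Gata6, Tbx5, Hand2 and Mef2c. Tbx20 rose, and Gata4, Nkx2-5, Mef2a, Mef2d and Srf did not pass the test. The differences ran from a log2 fold change of -1.31 for Gata6 to 0.45 for Tbx20, with a median of -0.18 over the 10 factors and -0.004 over all 11945 genes tested. In this comparison 43.5% of all genes were called, 21.9% higher and 21.6% lower, by the edgeR quasi-likelihood test with Benjamini-Hochberg adjustment over all genes at 0.05. The share of the factors called, 5 of 10, lies near that background.

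Comparison of S55L PP with WT PP asks the same on the day of birth. The same 4 factors fell, Gata6, Tbx5, Hand2 and Mef2c, none rose, and 6 did not pass. Here 31.5% of all genes were called, 16.3% higher and 15.2% lower, against 4 of 10 factors, all lower. Before adjustment 50.8% of all genes in the naive and 41.4% in the postpartum comparison had p under 0.05. The median log2 fold change was -0.14 over the factors and -0.001 over all genes.

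**Figure D1:**
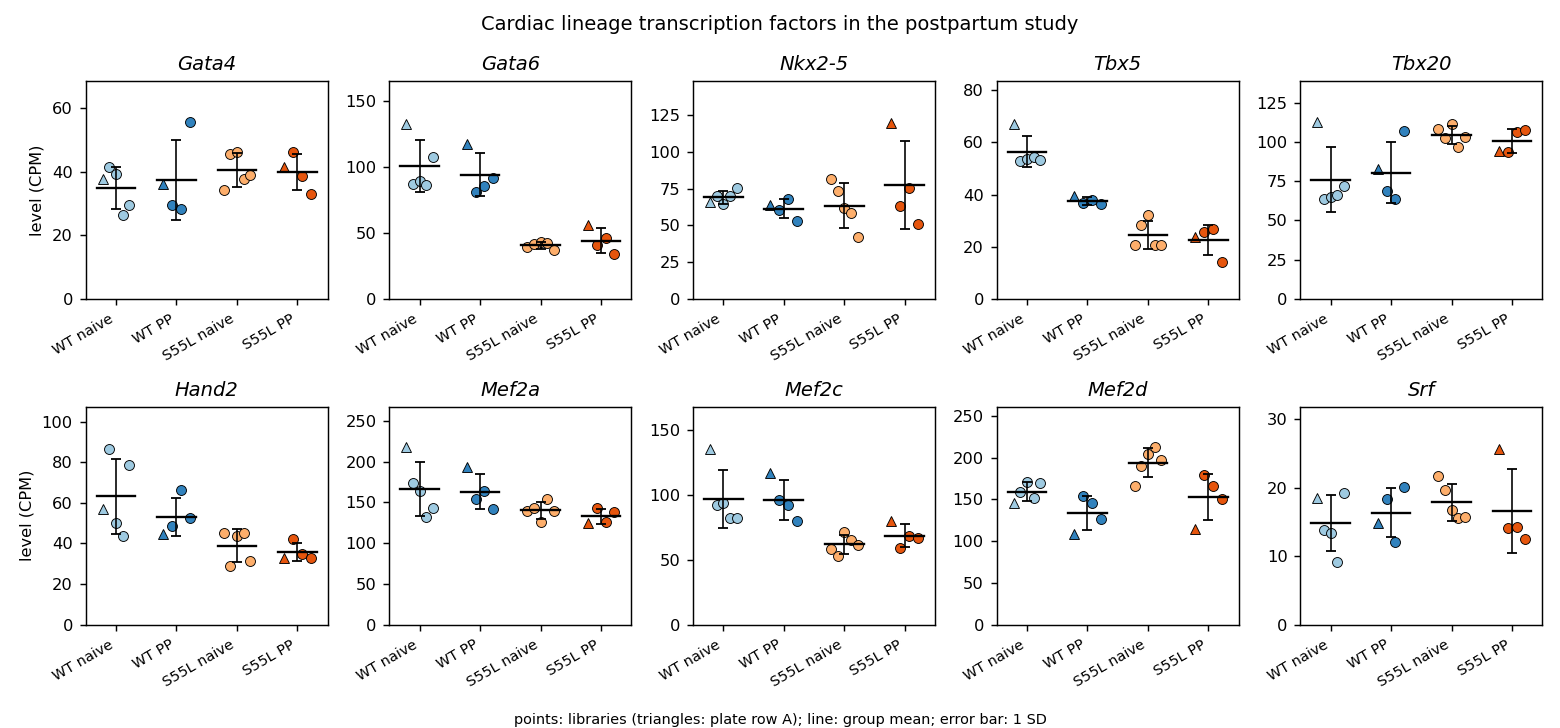
Level of each of the 10 factors, in CPM on the vertical axis, in the libraries of the 4 postpartum-study groups; points are libraries (triangles are those of plate row A), lines are group means and error bars are 1 SD. All S55L libraries lie below all WT libraries for Gata6 and Tbx5, while the groups overlap for Gata4, Nkx2-5 and Srf.

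Among the GATA factors, Gata6 showed the lowest fold change of the 10 and Gata4 did not pass the test. Gata6, which acts in cardiac muscle and vascular smooth muscle, was at 133, 87.4, 89.5, 86.6 and 108 CPM in the 5 WT naive libraries and at 118, 81.5, 85.8 and 91.8 CPM in the 4 WT PP libraries. In S55L naive it was at 39.6, 41.5, 43.5, 42.6 and 36.9 CPM, and in S55L PP at 56.2, 40.9, 46.3 and 34.0 CPM. The highest S55L library lay below the lowest WT library, and the S55L naive libraries were close to each other, with a coefficient of variation of 6.48%. The log2 fold change was -1.31 in naive hearts (SE 0.15, 95% confidence interval -1.62 to -0.99, adjusted p = 1.3e-07), a 2.48-fold lower level. In postpartum hearts it was -1.09 (SE 0.17, interval -1.44 to -0.74, adjusted p = 1.6e-05), 2.13-fold lower.

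Gata4, the partner of NKX2-5 and TBX5 at many cardiac promoters, ranged from 26.4 to 41.6 CPM in WT naive and from 28.4 to 55.6 CPM in WT PP. It ranged from 34.2 to 46.4 CPM in S55L naive and from 33.0 to 46.3 CPM in S55L PP, and the genotypes overlapped in both states. Its log2 fold changes were 0.23 (interval -0.14 to 0.59, adjusted p = 0.31) and 0.07 (interval -0.32 to 0.47, adjusted p = 0.80). The library of WT PP 5, at 55.6 CPM, stood above every other library.

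Nkx2-5, among the first markers of cardiac progenitors and later needed for conduction, was at 65.9, 70.2, 64.3, 70.0 and 75.7 CPM in WT naive and at 63.8, 60.3, 68.2 and 53.1 CPM in WT PP. It spread more widely in S55L hearts, at 81.3, 73.6, 62.0, 58.3 and 42.1 CPM in naive and at 119.6, 63.1, 75.7 and 50.8 CPM in postpartum libraries. Coefficients of variation were 6.38% in WT naive and 10.5% in WT PP, against 23.7% in S55L naive and 38.8% in S55L PP; the difference in spread was not tested. The S55L PP value was 19.6% without S55L PP 1, a library of plate row A, the WT PP value 6.22% without WT PP 5 and the S55L naive value 15.4% without S55L naive 5. Its log2 fold change was -0.12 in naive (interval -0.51 to 0.26, adjusted p = 0.61) and 0.34 in postpartum hearts (interval -0.09 to 0.76, adjusted p = 0.22).

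Of the T-box factors, Tbx5 fell in both states and Tbx20 rose in naive hearts. Tbx5, which in the adult heart is tied to atrial muscle and the conduction system, was at 67.0, 53.1, 53.8, 54.5 and 53.4 CPM in WT naive and at 39.5, 36.8, 38.0 and 36.2 CPM in WT PP. In S55L naive it was at 20.6, 28.2, 32.3, 20.8 and 20.7 CPM, and in S55L PP at 23.8, 25.8, 26.7 and 14.0 CPM. The groups descend from WT naive through WT PP to the S55L groups: no WT PP library reached a WT naive library, no S55L library reached a WT library, and the S55L groups overlapped. In naive hearts the log2 fold change between genotypes was -1.20 (SE 0.17, interval -1.54 to -0.85, adjusted p = 2.0e-06), 2.29-fold lower. In postpartum hearts it was -0.73 (SE 0.19, interval -1.12 to -0.34, adjusted p = 0.0042), 1.66-fold lower.

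Tbx20, which keeps adult cardiac muscle working and acts with GATA4 and NKX2-5, was at 113, 63.7, 64.9, 66.5 and 72.2 CPM in WT naive and at 108, 102, 112, 96.7 and 103 CPM in S55L naive. Of the WT naive libraries 4 lay below all S55L naive libraries and 1, WT naive 1, lay above them. The log2 fold change was 0.45 (SE 0.16, interval 0.13 to 0.77, adjusted p = 0.021), 1.37-fold higher. The call was lost without WT naive 2, 3 or 4 (log2 fold change 0.40 in each case, adjusted p = 0.062, 0.063 and 0.057). In postpartum hearts Tbx20 was at 83.1, 68.7, 63.4 and 107 CPM in WT and at 94.5, 93.9, 106 and 108 CPM in S55L, and the log2 fold change of 0.31 did not pass (interval -0.04 to 0.67, adjusted p = 0.18).

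Hand2, which builds the right ventricle in the embryo and is also made by fibroblasts and sympathetic neurons, was at 57.2, 86.5, 50.3, 43.6 and 78.7 CPM in WT naive and at 45.2, 29.1, 43.7, 45.2 and 31.6 CPM in S55L naive. These groups overlapped at the lowest WT library. Hand2 changed by a log2 fold change of -0.69 (SE 0.18, interval -1.06 to -0.33, adjusted p = 0.0028), 1.62-fold lower. In postpartum hearts it was at 44.6, 48.6, 66.4 and 52.7 CPM in WT and at 32.7, 42.0, 35.0 and 33.0 CPM in S55L, and the groups did not overlap. The log2 fold change was -0.56 (SE 0.20, interval -0.98 to -0.15, adjusted p = 0.035). This postpartum call was lost, at log2 fold changes from -0.56 to -0.44, when any 1 of WT PP 4, WT PP 5, S55L PP 1, S55L PP 4 and S55L PP 5 was left out.

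Of the 3 MEF2 genes Mef2c alone passed the test, and the differences between the 3 were not tested. Mef2c, the family member of early heart formation, was at 136, 92.3, 93.6, 82.0 and 82.6 CPM in WT naive and at 58.8, 52.7, 71.4, 65.1 and 61.7 CPM in S55L naive, with no overlap. Its log2 fold change was -0.65 (SE 0.15, interval -0.96 to -0.35, adjusted p = 0.00093), 1.57-fold lower. In postpartum hearts it was at 117, 96.6, 92.4 and 80.0 CPM in WT and at 80.2, 59.1, 68.7 and 66.7 CPM in S55L. Here the highest S55L library and the lowest WT library were almost equal. The log2 fold change was -0.49 (SE 0.17, interval -0.83 to -0.15, adjusted p = 0.024), and it no longer passed without WT PP 1 (-0.38, adjusted p = 0.11), S55L PP 3 (-0.42, adjusted p = 0.088) or S55L PP 5 (-0.48, adjusted p = 0.050153).

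Mef2a, a MEF2 form of postnatal heart muscle, ranged from 132 to 218 CPM in WT naive and from 125 to 154 CPM in S55L naive, and from 142 to 193 CPM in WT PP and 125 to 143 CPM in S55L PP. Its log2 fold changes of -0.24 (interval -0.52 to 0.03, adjusted p = 0.15) and -0.30 (interval -0.61 to 0.01, adjusted p = 0.14) did not pass. Mef2d, which takes part in stress-dependent remodelling of the mouse heart, did not pass either and ranged from 145 to 171 CPM in WT naive and 166 to 212 CPM in S55L naive. Its log2 fold changes were 0.28 (interval 0.01 to 0.56, adjusted p = 0.091) and 0.19 (interval -0.12 to 0.51, adjusted p = 0.35).

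Srf had the fewest reads of the 10 in every WT group, 16 to 39 per library in WT naive and 20 to 56 in WT PP, against 55 to 110 in the naive and 40 to 92 in the postpartum S55L group. Its level ranged from 9.18 to 19.3 CPM in WT naive, 12.1 to 20.1 CPM in WT PP, 15.6 to 21.7 CPM in S55L naive and 12.5 to 25.7 CPM in S55L PP. The log2 fold changes were 0.26 (interval -0.20 to 0.71, adjusted p = 0.37) and 0.01 (interval -0.49 to 0.51, adjusted p = 0.98), so at this depth a postpartum difference of up to about 0.5 in either direction on the log2 scale lies inside the interval.

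**Figure D2:**
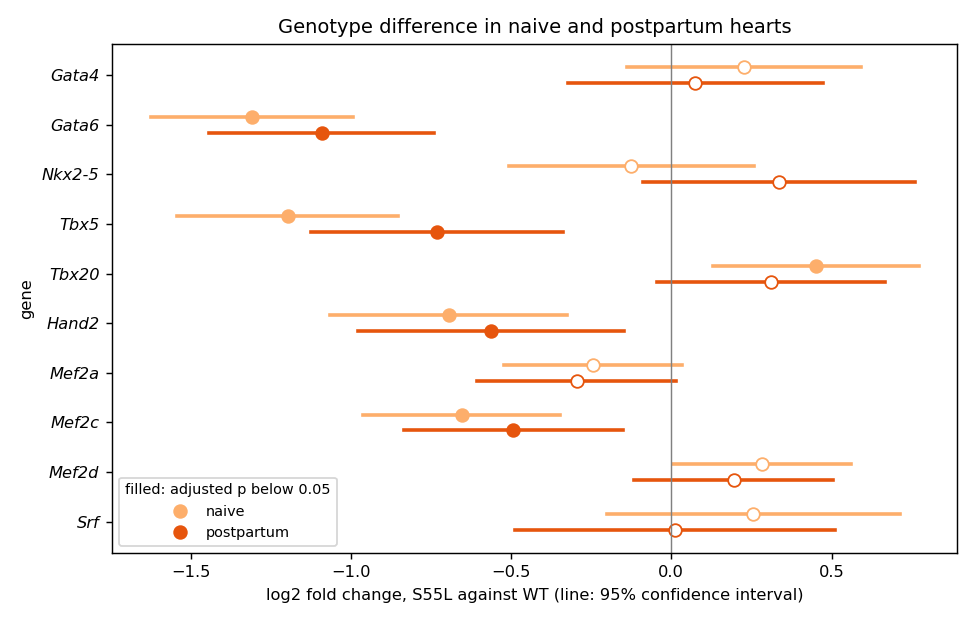
Log2 fold change of each factor between S55L and WT on the horizontal axis, in naive (light) and postpartum (dark) hearts; lines are 95% confidence intervals and filled points passed an adjusted p of 0.05. Gata6, Tbx5, Hand2 and Mef2c lie below 0 with filled points in both states, and Tbx20 lies above 0 with a filled point in naive hearts.

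Counted without any model, 3 factors lay lower without overlap in naive hearts, Gata6, Tbx5 and Mef2c, where 32.2% of all genes did not overlap. In postpartum hearts 3 did so, Gata6, Tbx5 and Hand2, where the share of all genes was 25.4%. Within plate column 2, which held 1 WT library and 1 S55L library of the postpartum groups, WT PP 1 against S55L PP 5, Gata6 was at 118 against 34.0 CPM, Tbx5 at 39.5 against 14.0, Mef2c at 117 against 66.7 and Hand2 at 44.6 against 33.0. Naive hearts had no plate column with both genotypes. With plate column as a term, Gata6, Tbx5 and Mef2c passed in naive hearts (3 of 10) and Gata6 and Tbx5 in postpartum hearts (2 of 10). The same fit called 24.1% and 17.6% of all genes, so these counts lie near the background. For naive hearts its column difference came only from WT PP 1 against the other WT PP libraries, so it cannot separate genotype from column there. Its postpartum estimate came from WT PP 1 and S55L PP 5 alone, the pair given above, and is not a separate check.

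Scaling by total counts in place of trimmed means (TMM) shifted the median of all genes by 0.24 in naive and 0.27 in postpartum hearts on the log2 scale. It changed the split of all genes tested from 21.9% called higher and 21.6% lower to 33.6% and 12.4% in naive hearts, and from 16.3% and 15.2% to 28.9% and 8.18% in postpartum hearts. Under it, Gata6 (-1.07 and -0.83) kept its call in both states. In naive hearts 7 of 10 factors passed, against 46.0% of all genes, with Gata4 (0.47) and Mef2d (0.53) added on the higher side. In postpartum hearts 4 of 10 passed, against 37.1% of all genes, but of the 4 called with TMM only Gata6 was among them: Mef2c (-0.22), Tbx5 (-0.47) and Hand2 (-0.29) did not pass, and Mef2d (0.47), Nkx2-5 (0.62) and Tbx20 (0.58) passed as higher. No factor called with TMM changed direction.

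The libraries of plate row A, WT naive 1, WT PP 1 and S55L PP 1, stood at the edge of their groups for some of the factors, a pattern chosen after the values were seen. The last 2 of these stand for identical columns deposited under rows A and B and were taken as row A. Gata6 and Mef2c were highest of their group in 3 of 3 and Mef2d was lowest in 3 of 3. How many of all genes did the same was not counted, so this need not be particular to these factors. Relative to the mean of the other libraries of the group, Gata6 differed by 0.52, 0.45 and 0.48 and Mef2c by 0.63, 0.39 and 0.31 on the log2 scale. Mef2d differed by -0.16, -0.39 and -0.53. Without these 3 libraries Gata6 fell by 1.19 in naive and by 1.11 in postpartum hearts, Tbx5 by 1.13 and 0.74, Mef2c by 0.50 and 0.47, and Hand2 by 0.73 and 0.61 on the log2 scale, each still called, and the rise of Tbx20 in naive hearts was 0.64. Without all libraries of the outer rows A and H, Gata6 (-0.94), Mef2c (-0.57) and Tbx20 (0.59) passed in postpartum hearts, and Tbx5 (-0.51, adjusted p = 0.096) and Hand2 (-0.57, adjusted p = 0.17) did not. That fit compared only WT PP 3 and 4 with S55L PP 3 and 4 in postpartum hearts, and it called 25.4% of all genes there.

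**Figure D3:**
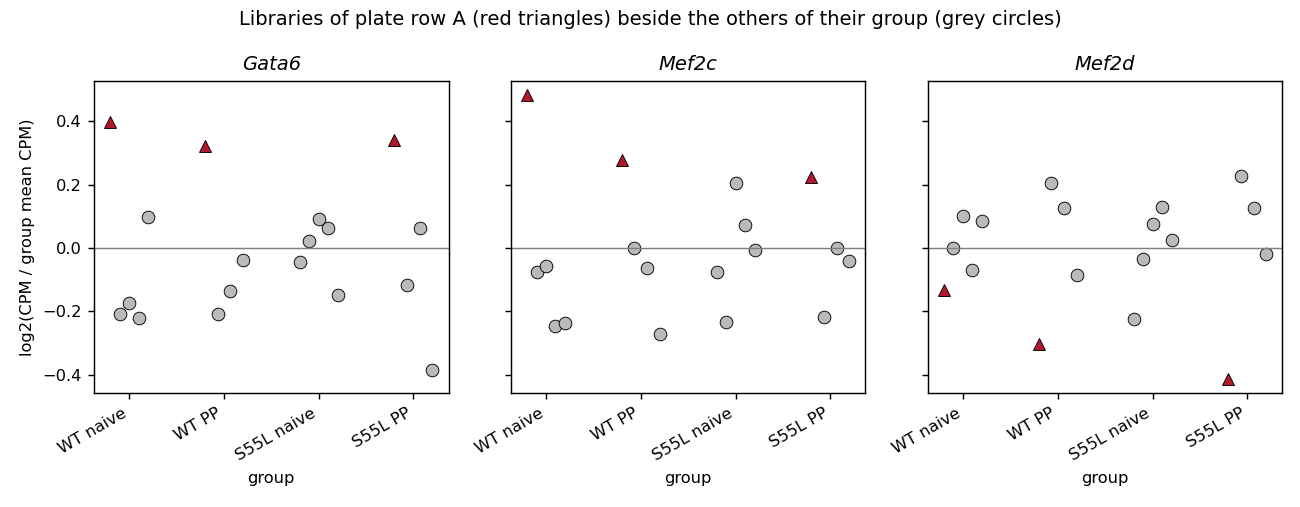
Level of Gata6, Mef2c and Mef2d in each library of the postpartum study, as log2 of its CPM over the group mean on the vertical axis; red triangles are libraries of plate row A and grey circles the others. The 3 triangles lie above the other libraries of their group for Gata6 and Mef2c and below them for Mef2d.

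Comparison of postpartum with naive hearts within a genotype asks what differs after pregnancy and birth. Age may differ as well, since the labels give 100 days for naive mice and only breeding at 65 days for PP mice. In S55L hearts all naive libraries lay in plate column 2 and all PP libraries but S55L PP 5 in column 3. In WT hearts none of the 10 factors passed, and 2 of 11945 genes did (0.0167%). At an unadjusted p under 0.05 there was 1 factor, Tbx5, against 6.33% of all genes, and DESeq2 called none of the factors. Tbx5 lay lower in WT PP (37.7 ± 1.46 CPM, n = 4) than in WT naive (56.4 ± 5.95, n = 5) without overlap, which 1.88% of all genes did. Its log2 fold change was -0.58 (SE 0.18, interval -0.95 to -0.21) and the adjusted p of the edgeR quasi-likelihood test was 0.49. The other 9 factors overlapped between the groups.

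In S55L hearts the 10 factors were likewise not called between PP and naive, and no gene was (0%), while DESeq2 called 18 genes and none of the factors. Mef2d alone had an unadjusted p under 0.05, against 6.25% of all genes. It was at 115, 179, 166 and 151 CPM in S55L PP and at 166, 189.6, 204.5, 212 and 198 CPM in S55L naive, which overlap, as all 10 factors did; 2.25% of all genes did not overlap. Its difference on the log2 scale was -0.35 (SE 0.14, interval -0.64 to -0.05, adjusted p = 0.72). In WT hearts Mef2d was at 134 ± 20.5 CPM postpartum and 159 ± 11.0 CPM naive. The intervals of the other factors in both genotypes spanned 0 and lay between -0.65 and 0.67, so changes within these limits were not detectable at this depth.

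Whether the genotype difference itself changed with the postpartum state was tested as an interaction. No factor passed, nor had any an unadjusted p under 0.05, and no gene was called (0%; 3.72% at an unadjusted p under 0.05); DESeq2 called 1 gene and none of the factors. The 2 factors with the largest interaction were Tbx5 (0.47, interval -0.05 to 0.99, adjusted p = 0.997) and Nkx2-5 (0.46, interval -0.11 to 1.03, adjusted p = 0.997).

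Genes that work with these factors or under them were counted in lists chosen from textbook knowledge, with earlier results of these data known. Beside these counts stand the shares of all genes called, 43.5% in naive and 31.5% in postpartum hearts, of which 21.6% and 15.2% were called lower. Among 28 tested partners and cofactors 11 fell and none rose in naive S55L hearts, with 13 at an unadjusted p under 0.05, and 7 fell and 1 rose, Yap1, in postpartum hearts. That is 39.3% and 28.6% of the list called in either direction, no more than among all genes. Each of the 7 that fell postpartum had also fallen in naive hearts. Hopx, a homeodomain-only protein that binds SRF, fell from 164 ± 23.0 to 33.4 ± 6.37 CPM (log2 fold change -2.30) in naive and from 168 ± 28.3 to 32.3 ± 10.1 CPM (-2.39) in postpartum hearts. Smyd1, a muscle histone methyltransferase, fell by 0.75 and 0.81 on the log2 scale. Camta2, a coactivator of NKX2-5, fell by 1.28 in naive hearts, and Fhl2, a LIM-domain partner of SRF, by 0.96 in postpartum hearts.

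Other cardiac transcription factors numbered 22 tested, of which 7 fell and 1 rose in each state, with 5 of the 7 shared. The share called, 36.4% in both states, was below that of all genes in naive hearts and near it in postpartum hearts. Id2, which blocks helix-loop-helix factors, rose from 20.9 ± 5.39 to 58.0 ± 17.0 CPM in naive hearts (log2 fold change 1.47). Tbx3, a T-box repressor of the conduction system, fell by 1.08 in naive and by 1.47 in postpartum hearts on the log2 scale. Nr2f2, a nuclear receptor of atrial and venous identity, fell by 0.83 in naive hearts. Irx4, a homeobox factor of the ventricle, fell from 35.4 ± 3.95 to 17.8 ± 5.67 CPM in postpartum hearts, and Klf15, which in mouse restrains MEF2 and GATA4, from 33.5 ± 2.26 to 11.9 ± 5.95 CPM.

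Of 21 tested genes known as targets of GATA4, NKX2-5 and TBX5, 12 fell and 5 rose in naive hearts and 11 fell and 3 rose postpartum, and 8 of the 22 on the list are also cardiomyocyte markers. The list had 81.0% of its genes called in naive and 66.7% in postpartum hearts. Chrm2, the muscarinic receptor of the heart, fell from 111 ± 18.6 to 18.2 ± 2.46 CPM in naive hearts (log2 fold change -2.60) and from 106 ± 17.1 to 24.8 ± 6.43 CPM postpartum (-2.10). Tnni3, cardiac troponin I, fell by 1.65 and 1.74, and Ryr2, the calcium release channel, fell by 1.65 in postpartum hearts. Kcne1, a potassium channel subunit, rose from 6.46 ± 2.45 to 72.8 ± 26.0 CPM in naive hearts (log2 fold change 3.52).

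Among 18 tested targets of MEF2, 14 fell in naive and 12 in postpartum hearts, 11 of them in both, and none rose; 15 and 14 had an unadjusted p under 0.05. The share called was 77.8% in naive and 66.7% in postpartum hearts. Of the cardiomyocyte markers 83.3% and 75% were called, all lower, and the part of that shift in the fall of these targets was not tested. Hrc, which binds calcium inside the sarcoplasmic reticulum, fell from 1064 ± 93.6 to 167 ± 39.5 CPM in naive hearts. Slc2a4, the insulin-responsive glucose transporter, fell by 1.22 and 1.61 on the log2 scale. Ckm, muscle creatine kinase, fell by 1.77 in naive hearts and Ppargc1a, a coactivator of mitochondrial genes, from 123 ± 22.7 to 59.1 ± 7.82 CPM in postpartum hearts. The median log2 fold change over the MEF2 list was -0.74 in naive and -0.70 in postpartum hearts.

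Targets of SRF were split into contractile and immediate early genes. Of 16 tested contractile targets 5 fell and 4 rose in naive hearts, and 2 fell and 3 rose postpartum, where the share called, 31.25%, equals that of all genes to within 1 gene of the list. Smtn, a smooth muscle cytoskeletal protein, fell by 1.55 and 1.62, while Myl9, a myosin light chain, rose by 1.81 and 1.93 and Acta2, smooth muscle actin, by 3.45 and 2.46 on the log2 scale. Of 7 tested immediate early targets 2 rose and 1 fell in naive hearts and 3 rose and 1 fell postpartum, or 42.9% and 57.1% of so short a list. Ccn1, a matrix-associated signalling protein, rose from 11.6 ± 4.04 to 32.4 ± 8.42 CPM in naive and from 12.3 ± 4.36 to 30.1 ± 2.90 CPM in postpartum hearts, and Mcl1, an anti-apoptotic protein, fell by 0.34 and 0.46 on the log2 scale. Egr2, a zinc finger factor, was called higher in both states, with 0 to 3 reads in each WT library and 7 to 32 in each S55L library.

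**Figure D4:**
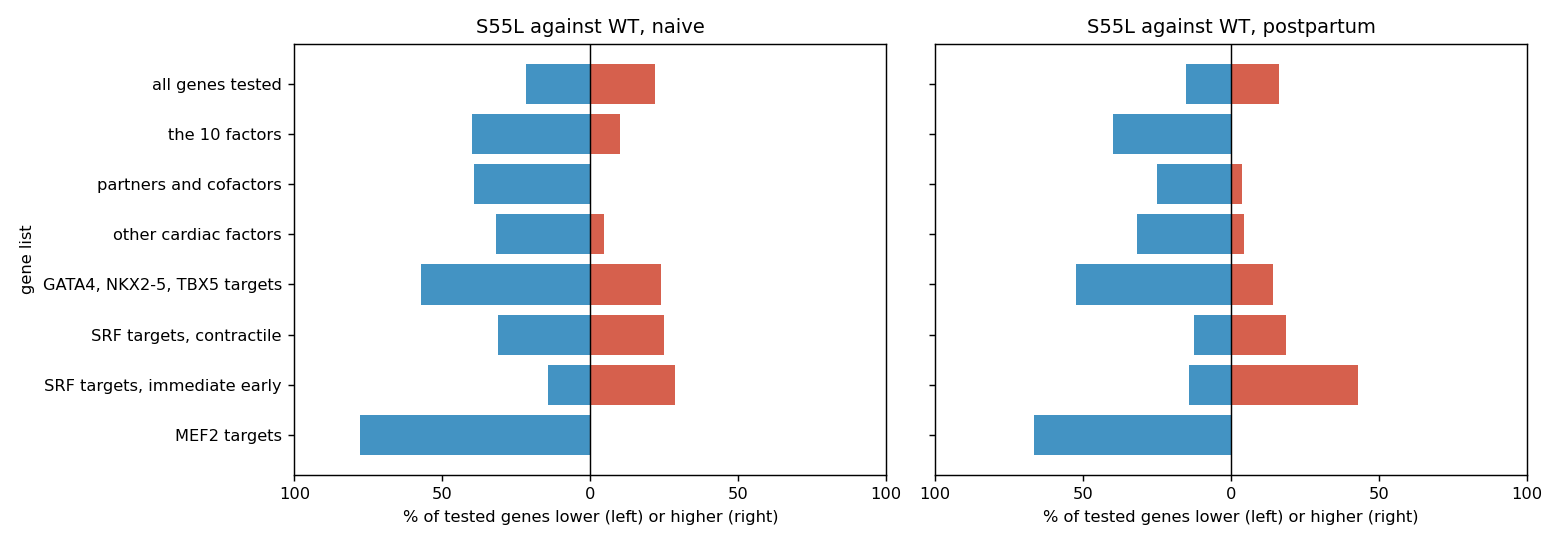
Share of the tested genes of each list that were called lower (left, blue) or higher (right, red) in S55L than in WT, in percent on the horizontal axis, for naive and postpartum hearts. The list of MEF2 targets has only genes called lower, while all genes tested split almost evenly.

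The 10 factors themselves stayed at 0 called in both comparisons of the postpartum with the naive state, and so did each of these lists. At an unadjusted p under 0.05 the counts per list were at most 2 in WT hearts, against 6.33% of all genes. In S55L hearts the highest were 5 of 18 MEF2 targets and 3 of 16 contractile SRF targets, against 6.25% of all genes. The excess over that share was not tested. With total-count scaling, 8 partners and cofactors were called higher and 4 lower in naive hearts, and 9 and 7 targets of MEF2 were called lower in naive and postpartum hearts, so the counts of these lists depend on the scaling. With plate column as a term, 5 and 3 of 28 partners and 7 and 7 of 21 GATA4, NKX2-5 and TBX5 targets were called lower. Of 18 MEF2 targets 9 were called lower in naive hearts. The same fit called 1487 and 1038 of all 11945 genes lower in naive and postpartum hearts.

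Transcription on both strands at some of these loci limits what the counts can say, because the strand setting of the counting is not given in the sources used here. In GENCODE M21, genes on the opposite strand overlap Gata6, Mef2a, Mef2d, Hand2 and Srf, so reads of these pairs cannot be told apart without strand. On the same strand, Gm44667 and Gm44668 overlap Mef2a and Mir6976 overlaps Srf, and strand would not separate these. Hand2os1, opposite Hand2, fell with it, from 27.5 ± 6.21 to 13.1 ± 3.01 CPM in naive hearts (log2 fold change -1.07, adjusted p = 0.00030) and from 21.6 ± 6.69 to 12.9 ± 3.43 CPM in postpartum hearts (-0.74, adjusted p = 0.022). 1010001N08Rik, opposite Gata6, fell from 8.72 ± 1.26 to 4.29 ± 0.59 CPM (-1.03, adjusted p = 0.0015) and from 7.52 ± 1.86 to 3.81 ± 1.10 CPM (-0.99, adjusted p = 0.0085).

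The 4-group profiles of the factors were set beside those of 9376 genes averaging 5 CPM or more, as the Euclidean distance between centred group means of log2 CPM over 4 groups. The nearest genes to Gata6 were Mrps18a and Atp5e, at distances of 0.0462 and 0.0468, and those to Tbx5 were Patz1 and Dsc2, at 0.0926 and 0.0960. Mef2c lay nearest to Pfdn1 and Fuom, Hand2 to Hspa5 and Fmc1, and Tbx20 to Rpl10a-ps1 and Ralgapb, all between 0.0301 and 0.0429. For Gata4 the nearest were Slc25a17 and Nfkbib, for Nkx2-5 Asb7 and Jak2, for Mef2a Rora and Araf, for Mef2d Zfp518a and Fbxl20, and for Srf Mybbp1a and Rbbp5. Among the factors themselves Gata4 and Srf were closest, at 0.11, followed by Gata4 and Tbx20 at 0.24 and by Mef2c and Hand2 at 0.24. Gata6 and Tbx20 were farthest apart, and Gata6 was nearest to Tbx5, at 0.42.

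The diet study asks whether EH301 during breeding changes S55L postpartum hearts. None of the factors was called: 9 of 10 were tested, since Srf, at 0 to 3 reads per library, did not pass the filter on low counts. No gene was called among 10335 (0%), 1.33% had an unadjusted p under 0.05, none of the factors did, and DESeq2 called no gene. The log2 fold changes of the 9 ran from -0.10 for Tbx5 to 0.36 for Mef2a, and their intervals from -0.86 to 1.54. Both limits belong to Nkx2-5, the only tested factor whose interval reached beyond 2-fold. The next highest limit was 0.93, for Mef2a, and differences inside these intervals could not be detected. This table lists another set of genes, and its levels were not compared with those of the postpartum study.

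Mef2a was at 71.2, 67.9, 66.5 and 80.3 CPM on the control diet and at 132, 57.4, 92.4 and 82.7 CPM on EH301, which overlap, with a log2 fold change of 0.36 (interval -0.21 to 0.93, adjusted p = 0.9999). Gata4 ranged from 158 to 234 CPM on control and from 181 to 236 CPM on EH301, and Mef2d from 51.2 to 128 and from 86.0 to 115 CPM. Mef2c ranged from 105 to 222 and from 108 to 169 CPM, and Hand2 from 24.8 to 55.6 and from 23.2 to 40.2 CPM. For all 10 factors the diets overlapped, while 1.5% of all genes did not overlap.

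The 2 libraries with the fewest reads were control 1 (466651 reads) and EH301 8 (1141997 reads). They stood apart from the other 6 for 4 of the 10 factors, Nkx2-5, Tbx20, Gata6 and Tbx5. For the other 6 factors they overlapped with them. The share of all genes that stood apart in this way was not counted, so the pattern need not be particular to these factors. Nkx2-5 was at 236, 53.2, 44.6 and 67.5 CPM on control and at 58.8, 238, 84.4 and 104 CPM on EH301, so that these 2 libraries lay above the other 6. Tbx20 was at 26.7, 73.2, 93.5 and 60.0 CPM and at 88.6, 34.1, 75.8 and 81.9 CPM, with the same 2 libraries below the others. Gata6, at 4.45 and 8.76 CPM in them and 13.1 to 21.1 CPM in the other 6, and Tbx5, at 15.6 CPM in both and 20.6 to 32.6 CPM in the others, were also lowest there. In the same 2 libraries macrophage markers summed to 4851 and 5820 CPM, against 1714 to 3015 CPM in the other 6, and mitochondrially encoded genes made up 6.95% and 11.9% of reads on genes, against 16.9% to 24.6%; their part in these levels was not tested. Without both libraries no factor was called either, and 0 genes were.

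**Figure D5:**
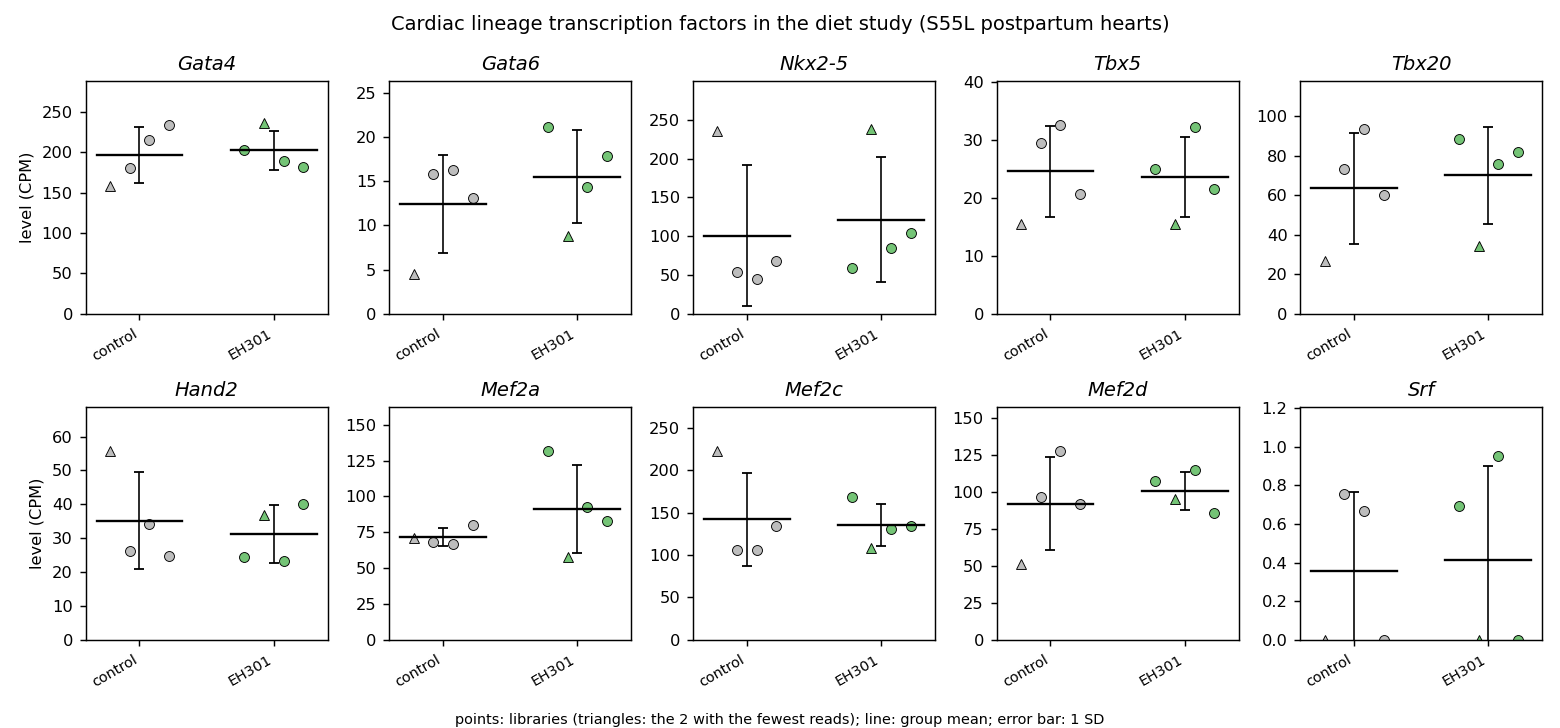
Level of each factor, in CPM on the vertical axis, in S55L postpartum hearts on the control or the EH301 diet; points are libraries (triangles are the 2 with the fewest reads), lines are group means and error bars are 1 SD. The triangles lie above the circles for Nkx2-5 and below them for Gata6, Tbx5 and Tbx20, while the diets overlap for every factor.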

How the data were processed

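Hearts were profiled in 20 deposited libraries of the postpartum study and 10 of the diet study, of which 18 and 8 distinct, unambiguous ones were fitted. The authors deposited unnormalized counts, 1 per gene and library. Per the labels' protocols, RNA was isolated with the Qiagen RNeasy Mini kit and made into 3' mRNA libraries with the Lexogen QuantSeq FWD kit. Trimmomatic 0.39, STAR 2.7.0f, HTSeq 0.6.1, DESeq2 3.21 and the build GRCm39.p6 are named in the submitters' processing notes. Annotation release, strand setting and counting mode are not given in the sources used here.

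Gene symbols came from GENCODE M21 by Ensembl identifier (51487 and 52073 identifiers matched). Summary lines of the counting stayed out of library sizes: in the postpartum study these were multiply aligned reads (17.5% to 27.3% of a library), ambiguous reads (4.45% to 7.08%) and reads outside genes (5.65% to 10.1%), and in the diet study the same classes took 35.2% to 39.1%, 1.97% to 2.50% and 1.43% to 1.74%.

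The 4 postpartum-study groups were fitted together and the diets apart, with edgeR 4.0.16 in R 4.3.3: filterByExpr by group, TMM scaling, robust quasi-likelihood F test, Benjamini-Hochberg adjustment over all genes tested, threshold 0.05. Standard errors were derived from each log2 fold change and its F statistic. CPM use TMM-scaled library sizes. The common biological coefficient of variation was 0.199 and 0.299. The pipeline was tested on simulated data. Named from each related list were up to 3 called genes with the lowest adjusted p per comparison, and for each factor the 2 genes of nearest profile. Yap1 and the markers Nppa, Sln, Myl7 and Cd79a were named after their values were seen. The 10 genes, the lists and the tests were chosen with earlier results of these data known.

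Alternatives were scaling by DESeq2 size factors or by total counts, omission of the filter, testing with DESeq2 1.42.0, removal of mitochondrially encoded genes, counts thinned to the smallest library, all deposited columns, the title number as replicate block, plate column as a term, fitting the compared groups alone, and leaving out libraries 1 at a time. Added after seeing the data were a term for the outer plate rows, and fits without outer-row, without row A and, in the diet study, without the 2 libraries under 1200000 reads. The labels do not say what a title number stands for. Between the postpartum genotypes, deviations from the group mean correlated positively in each of 4 same-numbered pairs (r = 0.119 to 0.333). The highest values, of numbers 1 and 5 (r = 0.326 and 0.333), belong to pairs that also share plate row A or H. Differently numbered pairs were not examined, so title number and plate row cannot be told apart here. Counting error alone limits factors with few reads, such as Srf.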

Additional observations from a re-analysis of the deposited data

Results flagged for a closer look

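In 60 tests of a gene in a group, 1 library stood apart from the rest of its group by Dixon's criterion 5 times; chance alone does so in about 1 of 20 groups. In WT naive, the same library, WT naive 1, stood above the other 4 for Mef2c (136 CPM against 82.0 to 93.6), Tbx5 (67.0 CPM against 53.1 to 54.5) and Tbx20 (113 CPM against 63.7 to 72.2). Without it, the log2 fold change between naive genotypes was -0.51 for Mef2c, -1.13 for Tbx5 and 0.64 for Tbx20. S55L PP 1 stood above the other 3 of its group for Srf (25.7 CPM against 12.5 to 14.3), and without it the postpartum log2 fold change of Srf was -0.27 in place of 0.01. Control diet 1, the library with the fewest reads, stood above the other 3 for Nkx2-5 (236 CPM against 44.6 to 67.5).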

How the results depend on the processing

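Gata6 was called in all 23 alternatives of the naive and all 21 of the postpartum comparison of genotypes, with log2 fold changes of -1.76 to -1.07 and -1.79 to -0.83. Tbx5 was called in 23 of 23 and 19 of 21, Mef2c in 23 of 23 and 14 of 21, Hand2 in 22 of 23 and 12 of 21, and Tbx20 in 18 of 23 and 3 of 21. The number of factors called moved from 5 to 3 in naive hearts with plate column as a term, and from 4 to 2 in postpartum hearts with that term or with no filter on low counts. The share of all genes called moved from 43.5% to 24.1% and from 31.5% to 17.6% with that term, and to 13.4% in postpartum hearts with no filter. Leaving out 1 library gave 4 to 5 in naive and 2 to 4 in postpartum hearts, the lowest without S55L PP 5, where 27.5% of all genes were called. The causes were not tested.

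Values that changed sign were all outside the calls of the main fit, edgeR with TMM scaling. Postpartum Nkx2-5, which was called higher with total counts (0.62), was among them. For Nkx2-5, the naive log2 fold change was 0.13 with total counts and 0.0017 with no filter, and with the plate column term it was -0.33 in the postpartum comparison and -0.12 in the interaction; leaving out 1 library gave -0.19 to 1.11 for diet. For Srf, the postpartum value was -0.078 with thinned counts, -0.25 with the plate column term, -0.11 without outer-row libraries, -0.34 without row A and -0.27 to 0.14 leaving out 1 library. For Gata4 it was -0.13 with the plate column term and -0.030 to 0.34 leaving out 1 library. The interaction of Tbx5 was -0.20 with the plate column term, and the diet value of Tbx20 was -0.086 to 0.30 leaving out 1 library.

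With the replicate block, 6 factors were called in naive hearts (45.8% of all genes), where Mef2d joined (0.28, adjusted p = 0.047, edgeR) although same-numbered naive libraries did not deviate together (r = -0.10 to 0.08); in postpartum hearts the block called the same 4. No paired analysis was possible for diet because the diets share no library numbers. Low read numbers limit Srf in all groups. In the shallowest diet library, control diet 1, reads ran from 0 for Srf and 2 for Gata6 to 106 for Nkx2-5. There the limit therefore differs between the factors.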
